A study of Mus musculus with 33 samples.

Results

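Contacts between the Tcra–Tcrd locus and the rest of its own chromosome were followed in three-way 3C-HTGTS reads. Mouse chromosome 14 up to base 51400000 and from base 55300001 on (mm10) was taken as far, which covers 24201 of the 24981 bins of 5 kb, 51.4 Mb on the V gene side of the locus, called upstream, and 69.6 Mb on the Eα side, called downstream. In 3C-HTGTS, fixed chromatin is cut with MboI and ligated, and products that begin at a biotinylated bait primer are amplified and read. One read that joins the bait to 2 other MboI fragments is a three-way contact. A read entered here when the midpoint of 1 or of both of its 2 fragments was far.

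The cells were CD4+CD8+ double-positive (DP) thymocytes of Rag1-/- mice on the C57BL/6 strain. These mice cannot recombine antigen receptor genes, and an injection of 150 μg of anti-CD3 antibody at 3 weeks of age carried their thymocytes to the DP stage within 10 days, so the locus was unrearranged in all groups. WT groups carried both copies of EACBE, the CTCF-binding element just downstream of the enhancer Eα, and EACBE-/- groups lacked it on the same Rag1-/- background. The far data came from 25 of 33 libraries. In WT cells the baits Eα, TEAp (the promoter at the start of the Jα array), Trav17–CBE2, INT2 (between the V and D gene segments) and Trdd2 had 3 libraries each and a second Eα bait had 1 library. In EACBE-/- cells Eα, TEAp and Trav17–CBE2 had 3 libraries each. Replicates are separate libraries by their labels, and nothing says whether each came from other animals, so the p-values measure the spread between libraries. The 8 liver libraries were held as matrices that begin at 52420001 and stay inside the left-out window, so far contacts in liver were not analysed here. The labelled cell type and the deletion could not be checked in contact data.

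A chromosome folds at several scales. CTCF and cohesin hold loops within neighbouring stretches of DNA, and contact frequency falls with distance along the chromosome. Over many megabases, active and gene-rich stretches tend to meet other active stretches and silent stretches tend to meet silent ones, a partition known as A and B compartments. The Tcra–Tcrd locus is highly active in DP thymocytes, where Eα drives transcription and recombination of the Jα and proximal Vα genes.

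Depth was 14307 to 328127 reads on chromosome 14 per library, of which 2258 to 32118 had a far fragment. Reads of the same pair of 5 kb bins recurred, and outside the INT2 libraries there were 1.88 to 12.1 reads per pair of bins with 2 far fragments and 4.05 to 24.1 per pair inside the window. In the 3 INT2 libraries there were 38.2, 94.97 and 44.7 reads per pair of bins inside the window. Reads carry no molecular identifiers, so PCR copies cannot be told from separate molecules, and intervals cover counting error only. The 100 kb strips on either side of the window borders held few fragments. The median over the 25 libraries was 0.00150% of all fragments just inside the upstream border and 0.00271% just outside it, against 0.0371% just inside and 0.0227% just outside the downstream border.

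The 25 libraries together reached 13761 of the 24201 far 5 kb bins (56.9%). Of the bins reached, 4726 were seen in 1 library only, 177 in 20 or more, and 12 in all 25. The 6 of these 12 with the most distinct pairs lay in or near Zfp957, Colq, Nop9 with Cideb, Rcbtb2 and Zmiz1. For 4 of them, the most recurrent whole MboI fragment of up to 300 bases outside any UTR is shown, as examples of the far DNA in the most recurrent bins. The sequences are the plus strand of mm10, with the MboI sites at both ends in capitals.
Fragment between genes, nearest to Zfp957, chr14:79268126-79268295: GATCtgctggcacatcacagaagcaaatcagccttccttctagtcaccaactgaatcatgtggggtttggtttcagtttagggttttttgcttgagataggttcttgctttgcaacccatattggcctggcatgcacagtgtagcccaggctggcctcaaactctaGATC
Fragment in Colq, first, chr14:31557370-31557469: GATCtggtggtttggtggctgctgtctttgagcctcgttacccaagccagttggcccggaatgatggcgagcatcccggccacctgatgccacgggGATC
Fragment in Colq, second, chr14:31534354-31534543: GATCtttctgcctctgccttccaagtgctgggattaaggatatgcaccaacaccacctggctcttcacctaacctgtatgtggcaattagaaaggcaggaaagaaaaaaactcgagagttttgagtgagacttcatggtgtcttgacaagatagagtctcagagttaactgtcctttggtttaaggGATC
Fragment in Nop9, chr14:55750138-55750235: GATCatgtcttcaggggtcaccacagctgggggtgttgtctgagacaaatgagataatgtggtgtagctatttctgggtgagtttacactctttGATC

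The fragment near Zfp957, a zinc finger gene, is 170 bases long and was seen in 16 of the 22 libraries whose fragment positions were held. Its 5 kb bin, 17632 bases from Zfp957, took between 0.0234% and 0.701% of the far fragments of a library, with a median of 0.108%, where an even spread would give 0.00413%. The first Colq fragment, which also lies in the overlapping gene Gm49387, and the second lie between exons of Colq, which encodes the collagen tail of acetylcholinesterase. They were seen in 11 and 8 libraries. The Nop9 fragment lies between exons of Nop9, a ribosome biogenesis gene, in a 5 kb bin that also holds part of Cideb, and was seen in 10 libraries. The medians of the 6 recurrent bins ran from 0.0788% to 0.147%.

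In WT cells every bait reached the far chromosome, with 7.45% to 11.8% of the reads carrying 1 far fragment. Trav17–CBE2 had 11.8%, 11.1% and 10.9% of its reads with 1 far fragment in its 3 libraries, the highest among the baits. Eα had 9.99%, 9.30% and 10.5%, INT2 had 9.10%, 8.76% and 8.98%, TEAp had 8.33%, 7.65% and 7.60%, and Trdd2 had 7.45%, 7.84% and 8.003%. The second Eα bait had 8.14% (95% exact Clopper-Pearson interval 7.98 to 8.30), below all 3 libraries of the first. TEAp and Trdd2 overlapped, and the other neighbours in this order did not, apart from the single library of the second Eα bait, which fell within the TEAp range. With each pair of 5 kb bins counted once, INT2 was the highest instead, at 37.4%, 39.2% and 40.7%, against 18.3% to 18.9% for Trav17–CBE2 in WT cells. INT2 reads differ in composition, as given below, so this rank may not rest on the same measure.

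The share of reads with 2 far fragments spread the baits further apart. It was 9.79% ± 0.27 (SD, n = 3) for Trav17–CBE2, 8.64% ± 0.36 (SD, n = 3) for Eα, 7.54% ± 0.64 (SD, n = 3) for Trdd2, 6.65% for the second Eα bait (95% exact Clopper-Pearson interval 6.50 to 6.80), 5.04% ± 0.31 (SD, n = 3) for TEAp and 1.09% ± 0.08 (SD, n = 3) for INT2. With each pair of 5 kb bins counted once the gaps were smaller and the order changed, at 16.8% for Trdd2, 16.2% for Trav17–CBE2, 15.7% for Eα, 15.5% for the second Eα bait, 13.4% for TEAp and 7.45% for INT2. Counted by reads, no 2 neighbours in the order overlapped, but the baits differ in primers and sequencing runs and were not tested against each other. INT2 stood apart in the composition of its reads as well. In its 3 libraries, 83.9% to 89.2% of the reads with 1 far fragment had their other fragment within about 10 kb of the bait primer, against 7.92% to 31.3% in the other 22 libraries. The same held for reads wholly inside the window. Of these, 85.95%, 88.77% and 86.56% had a fragment that close to the INT2 primer, against 10.9% to 39.2% elsewhere. The INT2 shares may therefore not be on the same measure as those of the other baits, which was not tested.

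**Figure D1:**
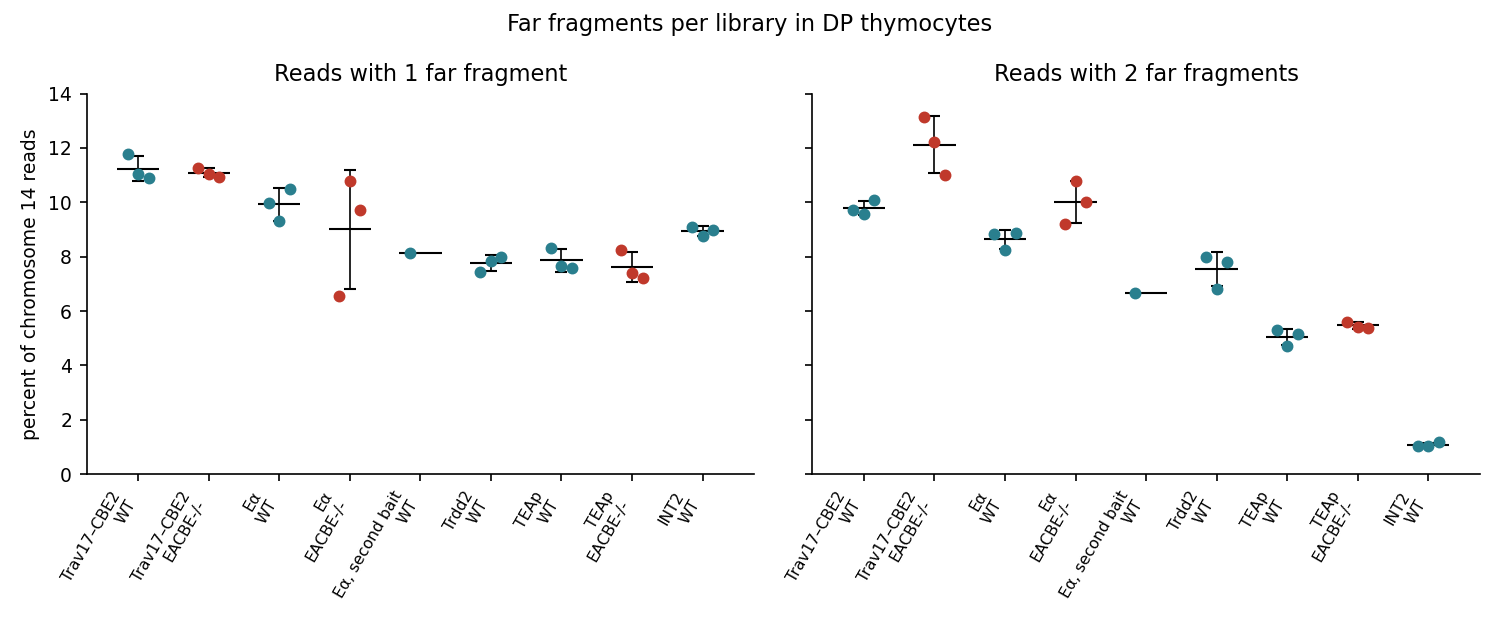
Percent of chromosome 14 reads with 1 far fragment (left) and 2 far fragments (right) in each DP library. Points are libraries (teal, WT; red, EACBE-/-), and lines and bars are the mean ± SD. The share with 2 far fragments runs from 1.03% for INT2 to 13.1% for Trav17–CBE2 in EACBE-/- cells.

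When one fragment of a read had left the locus, the other was often far too. If the 2 fragments of a read were far independently of each other, the share with 2 would be the square of the share of far fragments. The measured share was 3.73 to 6.65 times that product outside INT2 and 3.35 to 3.67 times it for INT2. Many of these pairs were close. Outside INT2, 38.5% to 65.7% of reads with 2 far fragments had both in the same or the next 5 kb bin, and 62.3% to 81.8% had them within 1 Mb of each other. Fragments that follow each other directly in the genome had been removed by the authors. Pairs over 1 Mb apart alone came to 1.05 to 2.30 times the product outside INT2 and 0.968 to 1.28 times it for INT2. The product covers pairs at every distance, so a value near 1 here does not show that an excess was absent. Pairs over 10 Mb apart made up 12.4% to 26.9% of reads with 2 far fragments outside INT2, and in 6.52% to 15.03% the fragments lay on opposite sides of the locus.

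Far contacts thinned slowly and unevenly with distance. The decay exponent, the slope of the log number of far fragments per Mb on the log distance from the bait (Poisson regression over 119 bins of 1 Mb), had a median of -0.54 over the 25 libraries and lay between -0.60 and -0.48. In WT cells it was -0.59 ± 0.01 for Eα, -0.57 ± 0.04 for Trav17–CBE2, -0.54 ± 0.04 for INT2, -0.53 ± 0.03 for TEAp and -0.52 ± 0.01 for Trdd2 (SD, n = 3 each), and -0.52 for the second Eα bait. Each bait overlapped its neighbour in this order, and no bait was tested against another.

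The slope hid a pattern that was not monotonic. Upstream of the locus a median of 0.789% of the far fragments fell in each Mb at under 5 Mb, 1.06% at 5 to 10 Mb, 0.235% at 10 to 20 Mb, 1.59% at 20 to 40 Mb and 0.163% beyond 40 Mb. Downstream the medians were 2.44%, 1.65%, 1.65%, 0.754% and 0.271%. An even spread would give 0.851% per Mb. The stretch 20 to 40 Mb upstream exceeded the stretch 10 to 20 Mb upstream in each of the 25 libraries, whose ranges were 1.42% to 1.73% and 0.155% to 0.354% per Mb. Both low upstream stretches hold repeated sequence. In the bins from 41000001 to 44000000, within 10 to 20 Mb, 66.9% to 90.3% of MboI site ends have 50 bases found at another site on the chromosome. In the bins from 3000001 to 8000000, beyond 40 Mb, it was 67.6% to 96.1%. Its part in the values by distance was not tested. Upstream DNA held 40.2% to 45.3% of the far fragments of a library.

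**Figure D2:**
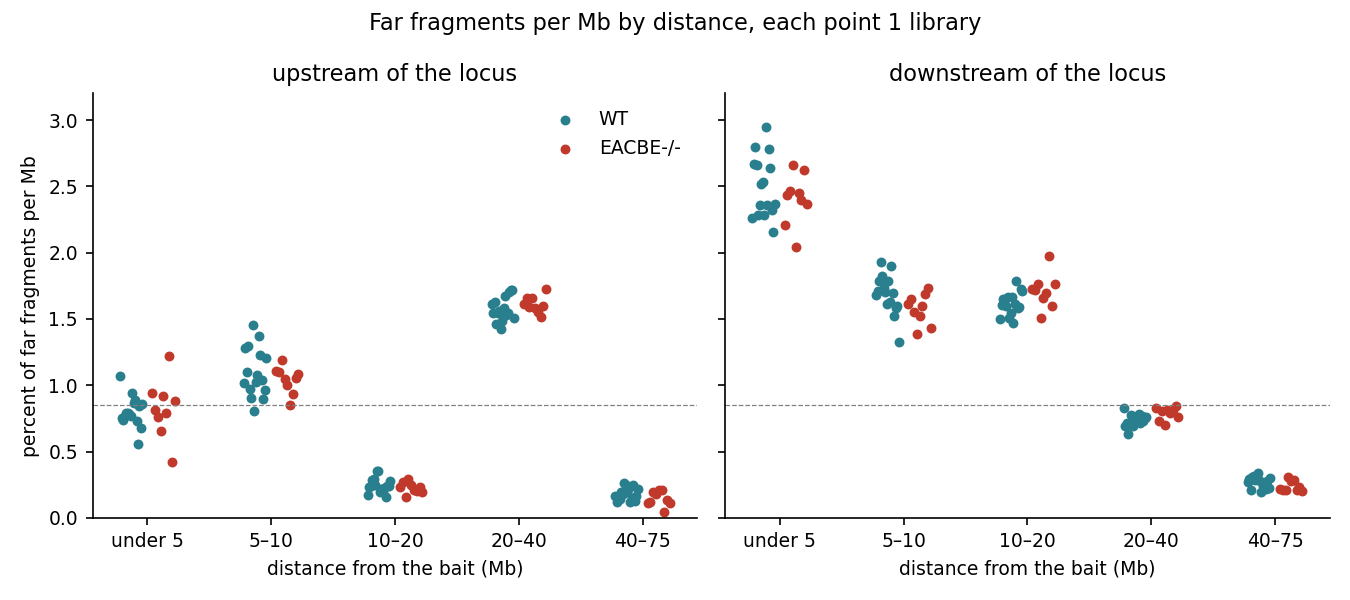
Percent of far fragments per Mb (y) by distance from the bait (x), upstream and downstream of the locus; each point is 1 library (teal, WT; red, EACBE-/-) and the dashed line marks an even spread, 0.851% per Mb. The stretch 20 to 40 Mb upstream lies above the stretch at 10 to 20 Mb in every library.

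At 1 Mb the far contacts fell into islands.
On average 16 of the 119 bins held 50% of the far fragments and 10 bins held 37.8%. Against the number expected from distance alone, the same 3 bins were highest for each of the 6 baits in WT cells. They were 31000001 to 32000000, with 22 coding genes including Colq, Eaf1 and Mettl6, 25000001 to 26000000, which holds Zmiz1, and 20000001 to 21000000, which holds Ppp3cb. Zmiz1 encodes a coactivator that works with Notch1 in developing T cells, and Ppp3cb encodes a catalytic subunit of calcineurin, the phosphatase downstream of the T cell receptor. Both were named because they are on the lymphoid list described below, and their bins hold 8 and 23 coding genes. Counted over gene bodies with 100 kb on each side, Zmiz1 had the highest median ratio in its bin, 8.20. Ppp3cb, at 5.67, was below other genes of its bin such as Chchd1 at 8.82 and Fut11 at 8.51.

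For the Eα bait the observed count in the Zmiz1 bin was 8.06, 6.90 and 7.75 times the expected count in the 3 WT libraries. The bin around Colq stood at 7.51, 7.07 and 6.95 times, and the Ppp3cb bin at 5.66, 5.89 and 5.13 times. Over the 25 libraries these bins ranged from 4.86 to 8.28, from 5.24 to 8.21 and from 4.64 to 7.499 times the expected count, and all 3 were above 1 in each library. All 3 lie over 20 Mb from every bait.

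Stretches with few contacts also recurred. The 37 Mb from 80000001 to 117000000, with 41 coding genes, held a median of 5.31% of the far fragments (range 2.71% to 8.20%), where an even spread would give 31.1%. The 3 lowest bins of every bait came from 5 bins, 4 of them between 3000001 and 7000000 and 1 at 42000001 to 43000000. The bin 3000001 to 4000000 had no fragment in 24 of 25 libraries, which allows a share of up to 0.00702% to 0.0839% of a library's far fragments (3 counts). These 5 bins hold 17 to 22 coding genes each, and 86.7% to 96.1% of their MboI site ends have 50 bases that occur at another site on the chromosome, against 11.1% in the median bin. The part of repeated sequence in these low values was not tested. In all, 9 bins had over 50% of their site ends repeated, and they held 0.328% to 1.32% of the far fragments.

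**Figure D3:**
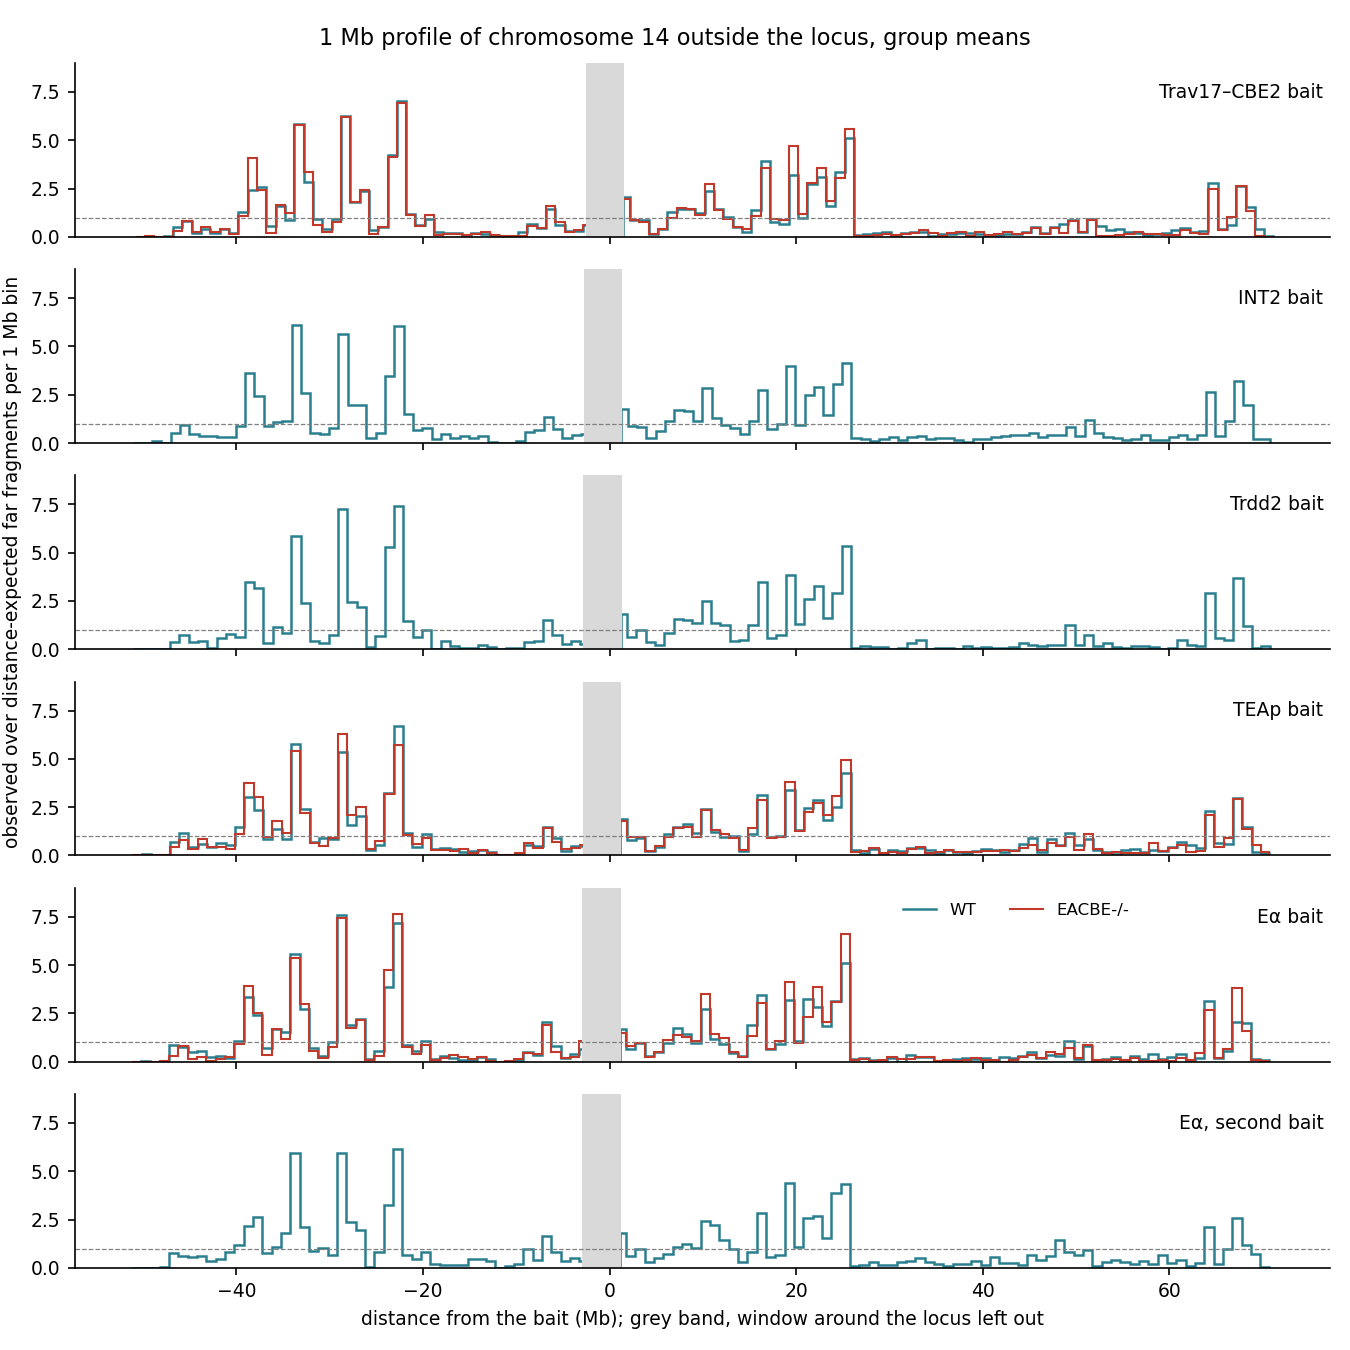
Observed over distance-expected far fragments in each 1 Mb bin (y) by distance from the bait (x) for 6 baits, as means of the libraries of a group (teal, WT; red, EACBE-/-). The grey band is the window around the locus that was left out, and the dashed line marks the expected level. The upstream peaks of the Colq, Zmiz1 and Ppp3cb bins and the long low stretch downstream recur for every bait.

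Profiles of different baits and genotypes correlated about as closely as replicates. Over the 119 bins, log2 shares of 2 libraries of the same group correlated with a median Pearson r of 0.870 (24 pairs, range 0.786 to 0.927). Libraries of the same bait and the other genotype had a median of 0.862 (27 pairs), and libraries of other baits and the same genotype 0.855 (132 pairs). Bins are not independent replicates, and the libraries share base composition and the neighbours of a single locus, so these values are a description. Group means of different baits correlated at 0.896 to 0.961.

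The islands lay mostly in GC-rich, gene-rich DNA. An exception was the bin 15000001 to 16000000, with 1 coding gene and 40.4% GC. It stood at 2.14 to 4.07 times the expected count over the groups and was chosen after its values were seen. The 116 full bins were split into 5 classes of about equal size. The class with the highest GC content held a median of 46.5% of far fragments (range 42.5% to 53.7%) and the class with the lowest held 2.43% (range 1.202% to 4.04%). The mean ratio of observed to expected rose in each step from 0.167 in the lowest class to 2.31 in the highest, as medians over libraries. By coding genes per Mb the classes stood at 0.250, 0.403, 1.03, 1.78 and 1.41, so the top class, with 12 to 36 genes per bin, was below the one beneath it. Without the 9 repeat-rich bins, all of them in the top class, it stood at 2.25. Spearman's rho of the ratio with coding genes per bin had a median of 0.405 over libraries, and 0.691 without the repeat-rich bins (107 bins). The median rho with GC content was 0.647 and with the number of MboI sites -0.22. Without the repeat-rich bins these were 0.741 and -0.069. Bins with more cutting sites did not have the higher ratios in either set. GC content and gene density move together here, and the part of GC content in these values was not tested.

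The lymphoid genes listed lay mostly in stretches above the expected level and the neural genes listed mostly below it. A gene body with 100 kb on each side was compared with the count expected from distance. Of 824 coding genes outside the window, 330 were above 1, with a median of 0.728. The repeat-rich bins hold 185 coding genes, many of which stood at 0 and lower these values. No lymphoid or neural gene listed lies in those bins, and the level of coding genes without them was not computed. Of 19 lymphoid genes, 17 were above 1 with a median of 2.96. They fell into 14 separate regions, of which 12 were above 1. Psme1, Psme2, Rnf31, Irf9 and Ripk3 have overlapping surroundings, and so do Gpr18 and Gpr183. Of 21 neural genes, 3 were above 1 with a median of 0.211. Liver genes stood in between, with 8 of 16 above 1 and a median of 1.09, and 1 of the 17 listed was not found on the chromosome. The liver genes fell into 11 separate regions, of which 5 were above 1, with a median of 0.884. Pck2 and Cideb, both above 1, lie in the same stretch as the lymphoid genes Psme1 to Ripk3. The lymphoid median exceeded the neural median in each of the 25 libraries, where they ranged from 2.10 to 3.70 and from 0 to 0.436. The lists were chosen with earlier results of these data known and carry no test. They do not hold every gene of a kind, and the granzyme genes Gzmc, Gzmd, Gzme, Gzmf, Gzmg and Gzmn, which are on no list, stood at 0.473, 0.289, 0.282, 0.461, 0.274 and 0.297.

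Among the regulators of transcription on the lymphoid list, Zmiz1 had a median of 8.13 in WT libraries (range 6.04 to 12.99) and 8.20 in EACBE-/- libraries. Elf1, an ETS factor of lymphocytes, had 5.48 (range 4.35 to 8.32) and 6.44. Egr3, which T cell receptor signals induce, had 3.25 and 3.19, and Irf9, a subunit of the interferon-activated ISGF3 complex, had 2.89 and 2.96. All 4 were above 1 in each library.

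Signalling genes covered a wider span. Ppp3cb stood at 5.81 in WT libraries (range 3.79 to 8.82) and Prkcd, which encodes protein kinase C delta, at 4.79 (range 2.30 to 9.80). Dok2, an adaptor that restrains T cell receptor signals, stood at 1.86, Ptk2b, a focal adhesion family kinase, at 1.82, and Blk, a Src family kinase of B cells, at 1.47. The receptor genes Gpr18 and Gpr183 stood at 6.30 and 6.93 near the downstream end of the chromosome. Gpr183 ranged from 1.425 to 17.5 over all libraries. Lcp1, the actin-bundling protein of leukocytes, stood at 3.60 and Tnfsf11, the cytokine RANKL, at 4.26. Below 1 were Wdfy4, a gene of antigen cross-presentation, at 0.895, and Gzmb, the cytotoxic protease granzyme B, at 0.412, which lies only about 2 Mb from the Eα primer.

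Members of the neural and liver lists differed by where they lay. The adhesion genes Pcdh9, Pcdh17 and Pcdh20 stood at 0.134, 0.166 and 0 in the median WT library, and the synaptic genes Slitrk1, Slitrk5 and Slitrk6 at 0, 0.179 and 0.114. Fgf14, at the far end of the chromosome, stood at 0.142. Cacna1d, a calcium channel gene next to Prkcd, stood at 3.797, Gfra2 at 1.79 and Htr2a at 1.16. Among liver genes, Itih1, Itih3 and Itih4, which encode plasma protease inhibitor chains and also lie near Prkcd, stood at 3.48, 3.10 and 2.59, and Cpb2, next to Lcp1, at 3.38. Mat1a, the methionine adenosyltransferase of liver, stood at 0.410 and Mbl1, a mannose-binding lectin, at 0.293, and both lie in a repeat-rich bin.

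**Figure D4:**
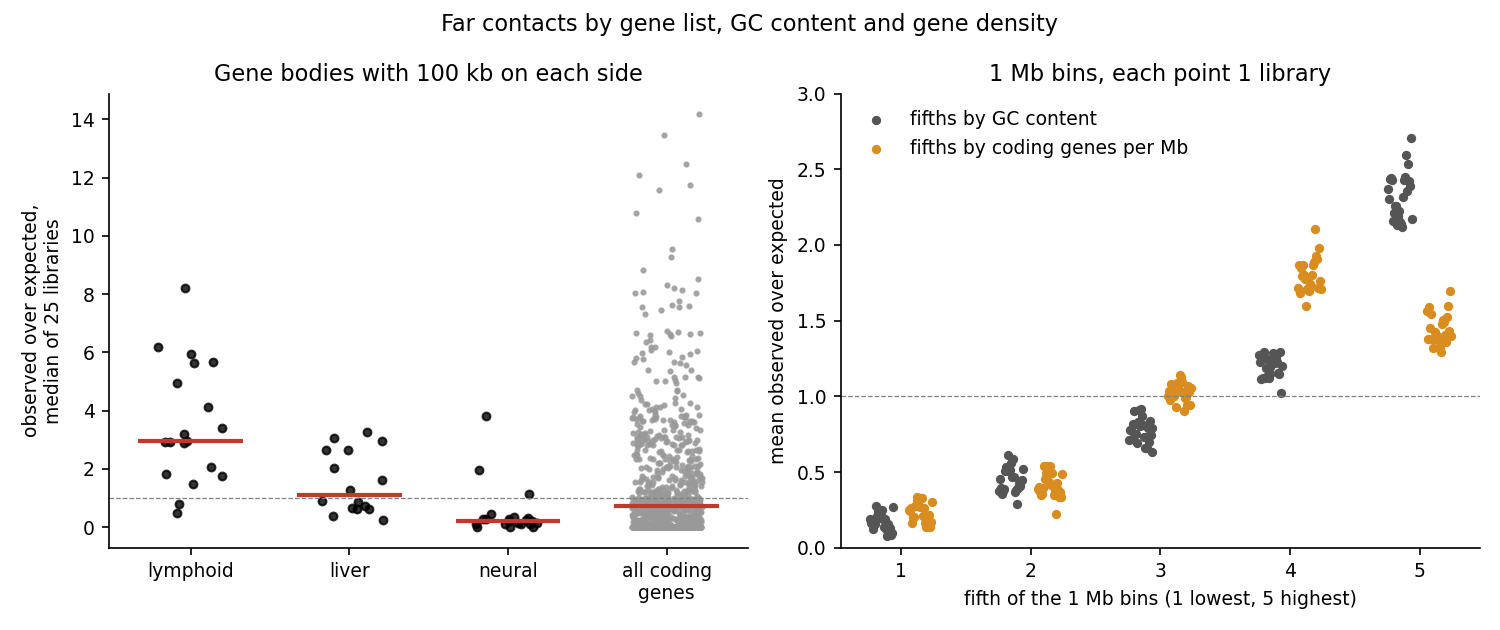
Left, median observed over expected far fragments of each gene body with 100 kb on each side (points; red lines are list medians). Right, mean ratio in 5 classes of the 1 Mb bins by GC content (grey) and by coding genes per Mb (orange), each point 1 library. Lymphoid genes have a median of 2.96, neural genes 0.211 and all 824 coding genes 0.728.

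Far fragments from different islands were also joined in single reads. Of the 119 bins, 34 had a median ratio above 1. Among reads with 2 far fragments over 10 Mb apart (163 to 2870 per library), a median of 37.4% had both in such bins, and the product of the single shares gave 35.8%. The pair seen in the most libraries joined the Ppp3cb bin with the Colq bin, 20000001 to 21000000 with 31000001 to 32000000, in 18 of 25 libraries and 173 reads. The next joined the Zmiz1 bin with 64000001 to 65000000 across the locus, in 17 libraries and 102 reads. Both pairs were chosen after their values were seen.

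Loss of EACBE was compared with WT for 3 baits, to ask how far contacts change when the CTCF-binding element next to the enhancer is missing. The share of reads with 1 far fragment did not separate the genotypes. For Eα it was 6.56%, 10.8% and 9.70% in the EACBE-/- libraries against 9.30% to 10.5% in WT, a difference of -0.916 percentage points that turned to 0.308 without EACBE-/- replicate 1, the shallowest library. For TEAp the difference was -0.240 and for Trav17–CBE2 -0.157 percentage points. The exact two-sided permutation test gave adjusted p = 0.80 for each bait over the 3 comparisons.

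The share with 2 far fragments was higher in every EACBE-/- library than in every WT library, for each of the 3 baits. For Trav17–CBE2 it was 9.72%, 9.56% and 10.1% in WT and 13.1%, 12.2% and 11.02% in EACBE-/- cells. For Eα it was 8.84%, 8.23% and 8.86% in WT and 9.22%, 10.8% and 10.0% in EACBE-/- cells. For TEAp it was 5.29%, 4.70% and 5.14% in WT and 5.60%, 5.41% and 5.39% in EACBE-/- cells, the narrowest gap. The mean was 1.24, 1.16 and 1.08 times that of WT, and the differences were 2.33, 1.36 and 0.426 percentage points. With each pair of 5 kb bins counted once the difference was 3.37 for Eα and the TEAp groups overlapped. Every Eα library of EACBE-/- cells was shallower than every WT library, at 14307, 15845 and 27575 reads against 28597 to 75174. Aligned fragments were shorter in them too, with medians of 99 to 104 bases against 105 to 114. The part of depth and aligned length in the Eα differences was not tested. Without reads in 1 bin of 5 kb it was 0.920 for Eα, where the groups overlapped, and 0.858 for TEAp. The exact two-sided permutation test gave p = 0.1 for each bait, which is the smallest value that 3 libraries against 3 allow, and adjusted p = 0.1 over the 3 comparisons. No sequencing run held both genotypes of a bait, so genotype and run cannot be told apart.

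The pairs were then split by the distance between their fragments, without a test of one bait against another. For Eα, close pairs were higher in every EACBE-/- library. With both fragments in the same or the next 5 kb bin, the share of all reads was 3.51%, 4.12% and 3.89% in WT and 6.06%, 4.80% and 4.39% in EACBE-/- cells. All other pairs came to 4.80% ± 0.63 and 4.92% ± 1.54 (SD, n = 3 each), and pairs over 1 Mb apart differed by -0.004 percentage points. For TEAp close pairs had means of 2.43% in WT and 2.26% in EACBE-/- cells, and all other pairs 2.61% ± 0.46 and 3.21% ± 0.19 (SD, n = 3 each), with groups that overlapped. For Trav17–CBE2 both classes were higher in each EACBE-/- library than in each WT library, with the other pairs at 5.09% ± 0.44 and 6.66% ± 0.85 (SD, n = 3 each). When each distinct pair of aligned fragments was counted once, the groups stayed apart for Eα and Trav17–CBE2 and overlapped for TEAp (5.78% against 6.00%). Whether the genotype effect differed between baits was tested by exact permutation of genotype within each bait, and the largest gap, TEAp against Trav17–CBE2, was -1.91 percentage points with adjusted p = 0.78 over 6 such comparisons.

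**Figure D5:**
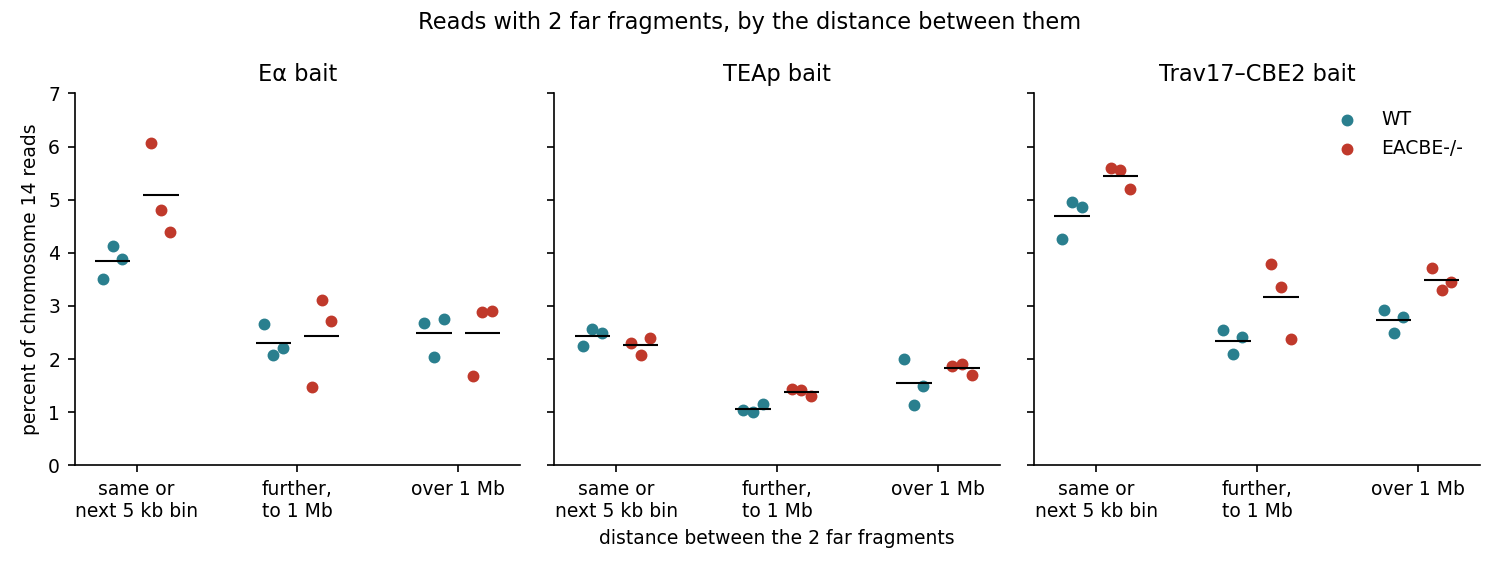
Percent of chromosome 14 reads with 2 far fragments (y), split by the distance between the 2 fragments (x), for 3 baits; points are libraries (teal, WT; red, EACBE-/-) and lines are means. Close pairs are higher in each EACBE-/- library for Eα and Trav17–CBE2 and overlap for TEAp.

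Both shares together, the share of reads with any far fragment, differed by 0.448 percentage points for Eα, 0.186 for TEAp and 2.17 for Trav17–CBE2. The sign turned for Eα without WT or EACBE-/- replicate 2 (-0.0745 and -0.823) and for TEAp without WT replicate 2 or EACBE-/- replicate 1 (-0.0919 and -0.190). Only Trav17–CBE2 kept the groups apart, at 20.6% to 21.5% in WT and 21.96% to 24.4% in EACBE-/- cells (exact two-sided permutation test, adjusted p = 0.30). The decay exponent was -0.56 ± 0.03 in EACBE-/- cells for Eα, -0.50 ± 0.02 for TEAp and -0.56 ± 0.01 for Trav17–CBE2 (SD, n = 3 each), higher than in WT by 0.03, 0.03 and 0.01. The groups overlapped for each bait, with adjusted p = 0.45, 0.45 and 0.70 by the exact permutation test. Fitted over distances up to 20 Mb, the exponent was -0.710, -0.598 and -0.561 in WT and -0.533, -0.557 and -0.512 in EACBE-/- cells for Eα, a difference of 0.09 that fell to 0.045 without WT replicate 1. For Trav17–CBE2 the difference was 0.10. The groups did not overlap for either bait, narrowly so for Eα (-0.561 against -0.557), and adjusted p was 0.15 for both by the same exact test. For TEAp the difference was 0.03 and the groups overlapped, with EACBE-/- replicate 1 at -0.599 below the WT libraries, and it turned to -0.0222 without EACBE-/- replicate 2. Leaving out libraries in this fit was chosen after seeing the data.

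No 1 Mb bin passed the threshold between genotypes. With edgeR's quasi-likelihood test and a Benjamini-Hochberg adjusted p under 0.05, 0 of 113 bins were called for Eα (0%), 0 of 115 for TEAp (0%) and 0 of 116 for Trav17–CBE2 (0%), and 7, 2 and 10 bins had an unadjusted p under 0.05. DESeq2 called 0, 0 and 4. Groups did not overlap in 12 bins for Eα (10.6%), 9 for TEAp (7.83%) and 11 for Trav17–CBE2 (9.48%). Among the 31 to 34 bins that held at least 1% of the far fragments in WT, the log2 fold change had a median size of 0.17, 0.17 and 0.12 with median standard errors of 0.28, 0.21 and 0.23. Counts were simulated for Eα only, with 20 of 113 bins changed and the same spread between libraries set for every bin. The test recovered 0 of the changed bins at 2-fold, 9 at 4-fold and 14 at 8-fold. Measured bins with many fragments had smaller standard errors (median 0.28 for Eα, against 0.71 over all 113 bins). The change detectable in such bins was not measured.

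Of the bins nearest to the threshold, 1 seen from Trav17–CBE2 is described. The bin 15000001 to 16000000, with Lrrc3b and Nek10, held 1.54%, 1.38% and 1.503% of the far fragments in WT and 2.41%, 2.61% and 2.37% in EACBE-/- cells, a log2 fold change of 0.74 ± 0.23 (SE) with an edgeR adjusted p of 0.1003. The groups did not overlap in this bin, which was chosen after its values were seen. It passed the threshold with TMM normalization, with all chromosome 14 fragments as library size and with DESeq2. It did not pass with distinct bin pairs counted once, with 2 Mb bins, with the replicate block or when any library was left out. For Eα it was not called under any setting tried.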

How the data were processed

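Reads were made by the authors, per the labels and methods, with fastp 0.20.0, cutadapt 1.18, Bowtie2 2.4.5 against MboI-digested mm10, SAMtools 1.9 and bedtools 2.29.2. Self-ligated, off-target and directly continuous fragments were removed. Deposited were lists of each read's first 2 fragments after the bait (22 libraries) and counts of reads per pair of 5 kb bins, not normalized (INT2 only as these). The authors' scaled matrices were not used. Fragments are listed by position, so their order in the read is lost. All 753224 fragments listed lie between 2 MboI sites of the reference.

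Fragments were assigned by midpoint and summed per 1 Mb. Expected counts came from the decay fit. Shares and exponents were compared by exact two-sided permutation with Benjamini-Hochberg adjustment over 3 comparisons, and bins with at least 10 counts by edgeR 4.0.16 (R 4.3.3), with DESeq2 1.42.0 as an alternative. The planned comparisons with liver could not be made from matrices inside the window. Members and gene lists were chosen with earlier results of these data known. Regions named are the 3 highest and 3 lowest 1 Mb bins per bait, bins past the threshold and the most recurrent 5 kb bins, and any other bin is named as chosen after its values were seen. The edgeR test was tested on simulated data. Genes come from the mm10 annotation. Another 1 Mb bin near the threshold is not reported here.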

Additional observations from a re-analysis of the deposited data

How the results depend on the processing

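The sign of the EACBE-/- minus WT difference in the share with 2 far fragments held in 20 of 21 combinations of bait and setting other than leaving out a library, and turned to -0.004062 percentage points for Eα with only pairs over 1 Mb apart, a setting chosen after seeing the data. With distinct bin pairs counted once it was 3.367 for Eα, and without reads in 1 bin of 5 kb it was 0.920 for Eα, with groups that overlapped, and 0.858 for TEAp. The share with 1 far fragment turned to 0.2443 for Trav17–CBE2 with distinct fragment pairs counted once (also chosen after seeing the data) and to 0.2137 without reads in 1 bin of 5 kb. Bins called by edgeR were 0 in most settings. Exceptions were 1 for Eα with distinct bin pairs counted once (79000001 to 80000000, around Elf1), and for Trav17–CBE2 2 with TMM normalization, 2 with all chromosome 14 fragments as library size, 1 with distinct bin pairs, 2 with 2 Mb bins and 4 with DESeq2. The cause was not tested.

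Leaving out each library in turn, the difference in the share with any far fragment ran from -0.8226 (without EACBE-/- replicate 2) to 2.066 (without EACBE-/- replicate 1) percentage points for Eα, from -0.1904 (without EACBE-/- replicate 1) to 0.5455 for TEAp and from 1.576 to 2.796 for Trav17–CBE2. For 1 far fragment it ran from -1.794 to 0.3078, from -0.5497 to -0.002866 and from -0.3202 to 0.104. For 2 far fragments it ran from 0.9714 to 1.758, from 0.2536 to 0.5484 and from 1.828 to 2.878. The exponent difference ran from 0.01781 to 0.04633, from 0.02083 to 0.04752 and from -0.007659 to 0.03177, and the bins called were 0, 0 and 0 to 1 (1 without WT replicate 2, and 1 without EACBE-/- replicate 2, 106000001 to 107000000).

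Same-numbered libraries did not deviate together (correlations of -0.177 to 0.104 over the 3 baits, against -0.122 to 0.212 for other numbers), so the numbers were not used as pairs. Such correlations cannot tell whether same-numbered libraries share an origin. With the replicate block, differences in shares and exponents are the same by construction (1.364, 0.4257 and 2.331 percentage points for 2 far fragments), and 0 bins were called for each bait. Comparisons with liver were not run.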
